A study of Mus musculus with 2 samples.

Results

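Resident Kupffer-like cells were liver cells that carried macrophage transcripts and Kupffer cell transcripts and held few counts of the lipid-associated macrophage genes Gpnmb, Mmp12 and Itgax. They were chosen by measured counts in 2 single-cell libraries of fixed liver cells, and 331 of 4878 kept cells met the rule. A cell was kept with at least 100 genes, at most 10% mitochondrial counts and at least 3000 counts. A kept cell was a gated macrophage when Siglec1, Tbxas1, Fyb, Lair1 and Lilrb4a summed to at least 5 per 10,000 counts and to more than 2 times the sum of 3 endothelial genes (Egfl7, Ushbp1, Ptprb) and of 3 stellate cell genes (Reln, Pdgfrb, Lrat). A gated macrophage was resident Kupffer-like when Clec4f, Marco, Cd5l and Folr2 summed to at least 5 per 10,000 and Gpnmb, Mmp12 and Itgax summed to under 5 per 10,000. The library labelled AEG-1DMAC held 140 of these cells and the library labelled AEG-1fl/fl held 191.

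The 2 libraries came from mice aged 27 weeks that had received a high-fat and high-sugar diet (HF/HSD) for 20 weeks from week 7. The AEG-1fl/fl littermates, on the C57BL/6/J background, carried floxed alleles of Mtdh, the gene for AEG-1 (metadherin), and AEG-1DMAC mice were obtained by crossing floxed mice with LysM-Cre mice. LysM-Cre is expressed from the Lyz2 locus and is active in macrophages, monocytes and neutrophils, so a deletion would not be limited to Kupffer cells. There was 1 library per label, whether a library pooled several livers was not stated, and transcripts were counted with hybridised gene probes. With 1 library per label no test between labels could be made, and every interval in brackets is a 95% interval that covers counting error only.

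Kupffer cells are the macrophages that live in the liver sinusoids. They clear bacteria, aged red cells and lipoproteins from portal blood with scavenger and complement receptors, recycle iron and present antigen on MHC class II. Clec4f, a C-type lectin, marks Kupffer cells of the mouse, and Timd4, a receptor for phosphatidylserine on dying cells, marks long-established ones. In steatohepatitis a part of the macrophage pool takes on a lipid-associated program with Gpnmb, Trem2, Cd63 and Mmp12, and newly recruited cells can gain Kupffer cell genes. The cells described here lie at the other side of that program, and Gpnmb, Mmp12 and Itgax chose them, so low levels of these 3 genes are not a result.

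The promoter stretches below belong to the gene groups whose levels are followed in the results, and are shown because each group carries a well-known short motif near its start site. MHC class II genes carry an X box and a Y box, which the regulator Ciita acts on through bound factors. Genes induced by interferon carry an interferon-stimulated response element, and many lysosomal genes carry the palindrome CACGTG, the core of the motif of Tfeb, a regulator of lysosomal genes. Sequences are from RefSeq on GRCm38.p6, on the strand of the gene, with the motifs in capitals: CTNGNAACT (X box) and ATTGG (Y box) for MHC class II, the interferon-stimulated response element (GAAA, 2 bases of any kind and GAAA, here read on the other strand) for the interferon-induced genes, and CACGTG for the lysosomal genes. The letters and the genes shown were chosen after the values and the promoters had been read.
H2-Aa, chr17:34287854-34287923, minus strand: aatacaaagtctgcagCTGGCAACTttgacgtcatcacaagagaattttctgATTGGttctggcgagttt
H2-Eb1, chr17:34305757-34305826, plus strand: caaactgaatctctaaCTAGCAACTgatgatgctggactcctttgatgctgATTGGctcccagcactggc
H2-DMb1, chr17:34153081-34153150, plus strand: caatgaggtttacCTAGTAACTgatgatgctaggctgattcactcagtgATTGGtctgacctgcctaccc
Gbp2b, chr3:142594689-142594738, plus strand: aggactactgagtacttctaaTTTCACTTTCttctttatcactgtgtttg
Gbp2, chr3:142620583-142620632, plus strand: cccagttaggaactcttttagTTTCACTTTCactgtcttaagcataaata
Gbp5, chr3:142496749-142496798, plus strand: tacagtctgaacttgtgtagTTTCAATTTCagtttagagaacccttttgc
Lamp1, chr8:13159091-13159155, plus strand: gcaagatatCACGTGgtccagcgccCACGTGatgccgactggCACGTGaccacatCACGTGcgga
Ctsd, chr7:142387898-142387947, minus strand: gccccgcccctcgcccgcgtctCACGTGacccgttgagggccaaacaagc

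Both strands of 250 bases before and 50 bases after each start site were searched in 32851 promoters. The X box letters were present in 4.10% of all promoters, the Y box letters in 37.4%, the response element in 3.44% and CACGTG in 7.15%. Of the 11 genes of the MHC class II list 6 had a promoter to search, and 3 of them held the X box letters and 4 the Y box letters. Of the 21 interferon genes 16 had a promoter and 9 of these held the response element, and of the 22 lysosomal genes 18 had a promoter and 4 of these held CACGTG. Lamp1 held the palindrome 4 times within 61 bases of its start site. A match is a description of letters, not a site or a cause.

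The label was checked against 6 Kupffer cell markers, of which Clec4f, Marco, Cd5l, Folr2 and Siglec1 were part of the rule, so that their levels were raised by the choice of cells and are no check. The marker outside the rule was C1qa, a subunit of the complement starter C1q. It was at 1128 CPM (counts per 1000000 counts) in resident Kupffer-like cells against 114 CPM in all other kept cells of the library labelled AEG-1DMAC, and at 1602 against 238 CPM in the library labelled AEG-1fl/fl. Of the Kupffer identity genes outside the rule, Vsig4, a complement receptor, was at 358 against 29.7 CPM and at 477 against 34.3 CPM, and Timd4 at 141 against 6.45 CPM and at 101 against 4.76 CPM, in the same order. C1qa is carried by macrophages at large, so the name rests mainly on the transcripts of the rule, and no measurement gave the origin of a cell.

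The lower limit on the Kupffer cell genes was also passed by cells that should lack them. In the library labelled AEG-1DMAC 150 of 261 endothelial cells (57.5%, 51.2 to 63.5) held at least 5 per 10,000 of Clec4f, Marco, Cd5l and Folr2, and in the library labelled AEG-1fl/fl 129 of 306 did (42.2%, 36.6 to 47.9). The median of this sum was 99.7 per 10,000 in the resident Kupffer-like cells of the library labelled AEG-1DMAC against 5.86 in its endothelial cells, and 104 against 3.44 in the library labelled AEG-1fl/fl. The 95th percentile of endothelial cells, at 39.7 and 56.4 per 10,000, was exceeded by 109 of 140 (77.9%) and 133 of 191 (69.6%) resident Kupffer-like cells. The lowest Kupffer cell sum inside the rule was 6.04 per 10,000 in the library labelled AEG-1DMAC and 5.05 in the library labelled AEG-1fl/fl, and the highest just outside was 4.85 and 4.87. On the sum of Gpnmb, Mmp12 and Itgax the highest values inside were 4.60 and 4.998 per 10,000 and the lowest values outside were 6.02 and 5.02. No cell of the library labelled AEG-1DMAC lay from 5 to under 6 per 10,000 on this sum among macrophages with Kupffer cell genes, against 15 cells of the library labelled AEG-1fl/fl.

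**Figure D1:**
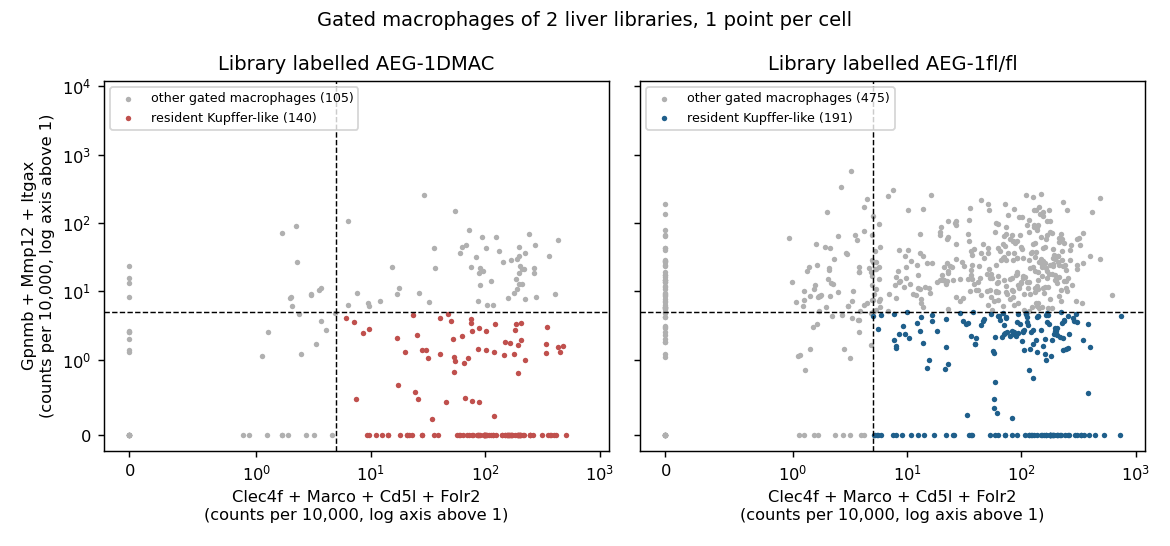
Each point is 1 gated macrophage; the horizontal axis gives the summed counts of Clec4f, Marco, Cd5l and Folr2 and the vertical axis those of Gpnmb, Mmp12 and Itgax, both per 10,000 counts on axes that are logarithmic above 1, with dashed lines at the limits of 5. The lower right field holds the 140 and 191 resident Kupffer-like cells (coloured), and the grey points are the other 105 and 475 gated macrophages.

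The libraries held 2581 and 3535 barcodes with 79589511 and 90440089 counts over 19059 genes, and a median of 12742 counts per barcode in the library labelled AEG-1DMAC and 7686 in the library labelled AEG-1fl/fl. Resident Kupffer-like cells were closer in depth, at medians of 7292.5 (range 3176 to 167341) and 6717 (range 3040 to 91721) counts, and summed to 2125643 and 2188213 counts. The deepest cell gave 7.87% of the sum in the library labelled AEG-1DMAC and 4.19% in the library labelled AEG-1fl/fl. The libraries shared 10 barcodes, 1 of which was a resident Kupffer-like cell in either library and 0 in both. The Y-linked gene Ddx3y had counts in the resident Kupffer-like cells of both libraries, 189 in the library labelled AEG-1DMAC and 193 in the library labelled AEG-1fl/fl.

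Transcripts of other liver cells were present in these cells and differed between the libraries. A list of 40 hepatocyte genes took 13.03% of the counts of resident Kupffer-like cells in the library labelled AEG-1DMAC and 11.5% in the library labelled AEG-1fl/fl, which was 52.4% and 47.2% of its level in hepatocytes. In the median cell it took 10.3% and 5.59%. Summed markers of endothelial cells were at 540 and 395 CPM, of stellate cells at 1255 and 692 CPM, of red cells at 762 and 176 CPM, of neutrophils at 196 and 579 CPM and of T and NK cells at 37.6 and 65.4 CPM, the library labelled AEG-1DMAC first. Of 13 endothelial markers with enough counts 4 were at least 2-fold higher in the library labelled AEG-1DMAC and 0 lower, and of 13 stellate markers 5 were higher and 0 lower. B cell markers were at 107 and 118 CPM, dendritic cell markers at 243 and 287 CPM and monocyte markers at 1548 and 1492 CPM. The monocyte sum was carried by Fn1, at 997 and 1000 CPM. Fn1 was higher in hepatocytes (1581 and 1986 CPM) and in all other kept cells (1590 and 1927 CPM), so the sum says little about monocytes. Of 10 monocyte markers with enough counts 3 were at least 2-fold higher in the library labelled AEG-1DMAC and 1 lower, with log2 ratios from -2.56 to 2.13, the highest that of Vcan with 17 and 4 counts. Cholangiocyte markers were near 0 (6.12 and 8.23 CPM), with the defining keratin Krt19 at 0 in both libraries. Their part in the differences below was not tested, beyond an alternative that subtracted the hepatocyte profile of the same library.

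Mtdh, the gene named by the labels, went against them in these cells. It had 217 counts in 91 of 140 cells of the library labelled AEG-1DMAC (102 CPM) and 91 counts in 51 of 191 cells of the library labelled AEG-1fl/fl (41.6 CPM). It was thus 2.45-fold higher where the label names a deletion, a log2 ratio of 1.30 (0.94 to 1.67). In gated macrophages at or over the upper limit on Gpnmb, Mmp12 and Itgax the log2 ratio was 2.51 (2.13 to 2.88). Mtdh was at 144 and 25.3 CPM there, the library labelled AEG-1DMAC first. In endothelial cells the log2 ratio was 0.09 (-0.15 to 0.33), in stellate cells 0.08 and in hepatocytes 0.13. The endothelial cells were at 81.5 and 76.8 CPM in the same order. With every cell thinned to 3000 counts, Mtdh was counted in 28.6% and 13.1% of resident Kupffer-like cells, beside 24.1% and 27.1% of endothelial cells of the same libraries. Whether the Mtdh probes lie in the floxed part of the gene is not given in the sources used here, so the counts are no check of the deletion, and every direction below is between the libraries as labelled. A swap of the libraries cannot be told apart from these labels here, and it would turn the sign of every ratio. Lyz2, the locus that carries the Cre gene, was at 946 and 644 CPM (log2 ratio 0.56, 0.46 to 0.65), and was higher in the library labelled AEG-1DMAC in endothelial cells (0.79), stellate cells (0.93) and hepatocytes (0.97) too. Snd1, which encodes a partner protein of AEG-1, was at 330 and 274 CPM (log2 ratio 0.27).

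The cells were uneven in the Kupffer cell genes that chose them. Cd5l, which encodes a secreted protein of the scavenger receptor family, had counts in all 140 and 191 cells and ranged from 5.32 to 381 per 10,000 in the library labelled AEG-1DMAC, with a median of 57.4, and from 2.60 to 691, with a median of 63.1, in the library labelled AEG-1fl/fl. Clec4f had a median of 33.3 per 10,000 and a highest cell of 132 in the former, and a median of 23.6 and a highest cell of 176 in the latter. Marco, a scavenger receptor for bacteria, was at 0 in the median cell of both libraries, with highest cells of 109 and 125 per 10,000. Thinned to 3000 counts per cell, 21 of 140 cells of the library labelled AEG-1DMAC had counts of all 4 genes, 48 of 3, 54 of 2, 15 of 1 and 2 of none. Of the 191 cells of the library labelled AEG-1fl/fl, 7 had counts of all 4, 59 of 3, 81 of 2, 44 of 1 and 0 of none.

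Detection at this common depth is given beside that in endothelial cells and hepatocytes. C1qa, outside the rule, was counted in 87.9% and 84.3% of resident Kupffer-like cells, against 26.1% and 27.5% of endothelial cells. The values of the other markers describe what the rule chose. Clec4f was counted in 87.9% and 76.4% of resident Kupffer-like cells (131 and 162 cells without thinning), against 34.1% and 20.3% of endothelial cells and 14.2% and 8.02% of hepatocytes. Siglec1, a receptor for sialic acid and part of the rule, was counted in 76.4% and 73.8% against 7.28% and 8.17% of endothelial cells. Folr2, the folate receptor of tissue macrophages, was counted in 47.1% and 32.5% (102 and 95 cells without thinning) against 9.20% and 6.54%. Cd5l was the marker most widely shared with other cells, in 97.9% and 99.5% of resident Kupffer-like cells and in 63.2% and 56.5% of endothelial cells. Marco was counted in 17.9% and 6.81% of resident Kupffer-like cells and in 8.05% and 2.29% of endothelial cells.

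Timd4, which the rule did not use, was counted in 24.3% and 14.7% of thinned resident Kupffer-like cells (50 and 41 cells without thinning), against 3.83% and 0.654% of endothelial cells. Marco and Timd4 were counted together in 15 of 140 cells of the library labelled AEG-1DMAC, Marco alone in 10, Timd4 alone in 19 and neither in 96. In the library labelled AEG-1fl/fl the same 4 classes held 8, 5, 20 and 158 of 191 cells. Most resident Kupffer-like cells therefore had no count of either gene at 3000 counts, and no count at this depth does not show that a gene was off. Without thinning, Marco was counted in 43 of 140 and 22 of 191 cells.

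Between the libraries 10686 genes had at least 20 summed counts in resident Kupffer-like cells. Of these 246 (2.3%) were at least 2-fold higher in the library labelled AEG-1DMAC and 230 (2.15%) at least 2-fold lower, and 5540 (51.8%) were lower by any amount, with a median log2 ratio of -0.02. Among the 6348 genes that stood above all other kept cells in both libraries, and so belonged more to these cells, 38 were at least 2-fold higher and 139 at least 2-fold lower, with a median log2 ratio of -0.09. The gene groups below are described by counts and medians against these figures, and a ratio always puts the library labelled AEG-1DMAC over the library labelled AEG-1fl/fl.

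**Figure D2:**
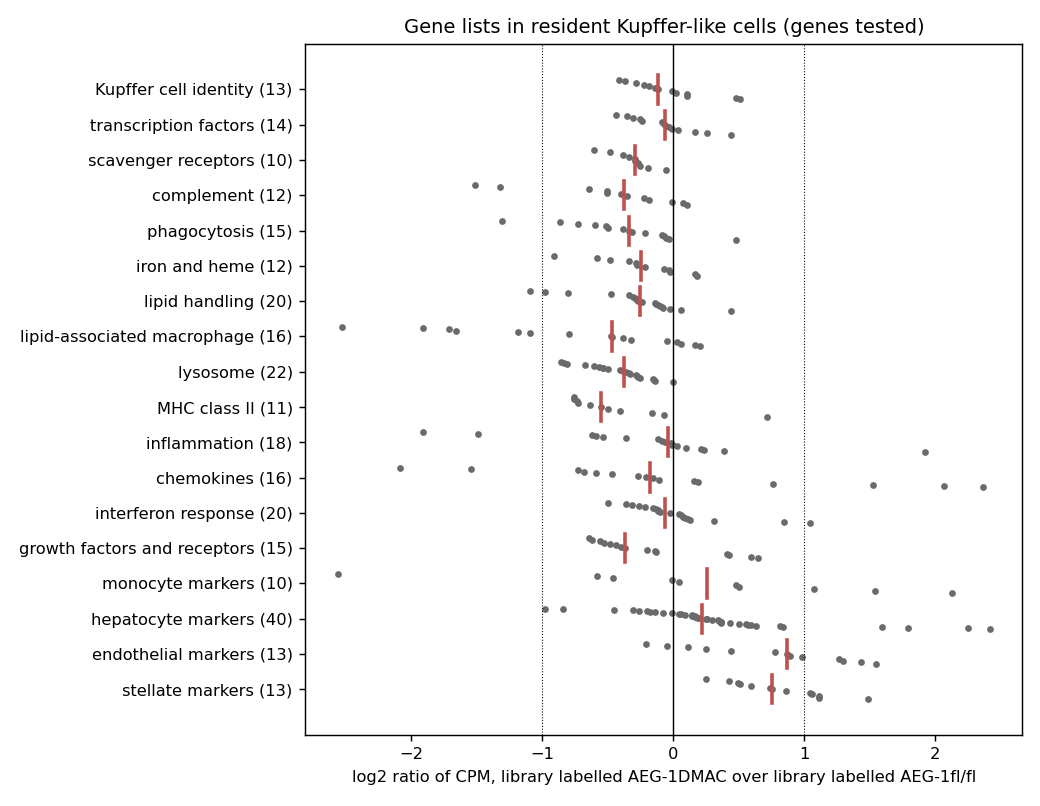
Each point is 1 gene of a list in resident Kupffer-like cells, placed by its log2 ratio of CPM (library labelled AEG-1DMAC over library labelled AEG-1fl/fl), with a bar at the list's median and dotted lines at 2-fold. The MHC class II, lysosome and lipid-associated macrophage medians lie at -0.55, -0.37 and -0.47, and the Kupffer identity and interferon medians at -0.11 and -0.06.

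Kupffer cell identity genes were near the background of all genes. Of 13 tested genes 0 were at least 2-fold higher or lower, 8 were lower by any amount and the median log2 ratio was -0.11. Between the libraries Vsig4 was at 358 and 477 CPM (-0.41). Timd4 was at 141 and 101 CPM (0.48, 0.22 to 0.74), beside 1.36 in endothelial cells and 0.94 in hepatocytes. Fcna, a secreted lectin, was at 293 and 206 CPM (0.51). The transcription factors of Kupffer cells, among them Nr1h3 (-0.03), Spic (0.17), Id3 (-0.09) and Zeb2 (-0.07), had 0 of 14 members past 2-fold and a median of -0.06.

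Marco was the Kupffer cell gene that differed most between the libraries. It had 526 counts in 43 cells of the library labelled AEG-1DMAC (247 CPM) and 172 counts in 22 cells of the library labelled AEG-1fl/fl (78.6 CPM), a log2 ratio of 1.65 (1.40 to 1.91). The highest cell held 13.9% of its counts in the former and 28.5% in the latter. The ratio was of like size in cells that should lack the gene, at 1.63 in endothelial cells and 1.55 in hepatocytes. Clec4f, in contrast, was higher in the library labelled AEG-1DMAC in endothelial cells (0.92) and hepatocytes (1.22) and not in resident Kupffer-like cells. Folr2 was at 248 and 181 CPM (0.46, 0.27 to 0.65), beside 0.90 in endothelial cells and 1.70 in hepatocytes.

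Scavenger and endocytic receptors were lower in the library labelled AEG-1DMAC by small amounts. All 10 tested members were lower and 0 passed 2-fold, with a median of -0.29 and an interval below 0 for 9. Lrp1, a receptor for lipoprotein remnants, had the most counts (2570 and 3153, -0.25). Cd163, the receptor for haemoglobin bound to haptoglobin, had 228 counts in 23 cells and 296 counts in 23 cells (-0.33, -0.59 to -0.08), so it was counted in a minority of the cells in both libraries, and 1 cell held 20.2% of the 228 and 1 cell 35.8% of the 296.

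Complement genes had a median of -0.38, with 10 of 12 members lower and 2 at least 2-fold lower. C1qb, a subunit of C1q and the member with the most counts, had 3487 and 5611 counts (1640 and 2564 CPM, -0.64, -0.71 to -0.58). The ratio was -0.51 for C1qa and -0.40 for C1qc, so the 3 subunits lay on the same side. The 2 members past 2-fold were C5ar1, the receptor for the anaphylatoxin C5a, with 56 counts in 29 cells and 164 counts in 84 cells (-1.51, -1.97 to -1.06), and Itgam, the alpha chain of complement receptor CR3, with 66 counts in 34 cells and 170 counts in 71 cells (-1.32, -1.76 to -0.90). C5ar1 had a ratio of -0.94 in endothelial cells and -1.74 in hepatocytes, and Itgam 0.03 and -0.73. C1qb was at -0.44 in endothelial cells and 0.07 in hepatocytes.

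Genes for uptake of dying cells and antibody-bound particles had 14 of 15 members lower, 1 of them past 2-fold, with a median of -0.33. Axl, a receptor that bridges to phosphatidylserine, was at 605 and 997 CPM (-0.72). The receptor tyrosine kinase Mertk, of the same family, was at -0.32, and the high-affinity IgG receptor Fcgr1 at -0.86. The member past 2-fold was Havcr2, with only 13 and 33 counts (-1.30). Iron and haem genes, with a median of -0.24 over 12 members, had 0 past 2-fold, and the iron exporter Slc40a1 (-0.21), the haem oxygenase Hmox1 (-0.07) and the ferritin chain Fth1 (0.18) all lay near 0.

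Most MHC class II genes, of which H2-Aa, H2-Eb1 and H2-DMb1 have their X and Y boxes printed above, were lower in the library labelled AEG-1DMAC. Of 11 members 10 were lower, 8 with an interval below 0 and 0 by 2-fold, and the median was -0.55 in a range from -0.76 to 0.72. H2-Aa, the alpha chain of I-A, had 1882 counts in 119 of 140 cells and 3280 counts in 178 of 191 cells (885 and 1499 CPM, -0.76, -0.84 to -0.68). Its beta chain H2-Ab1 (-0.73), the I-E chain H2-Eb1 (-0.75), the peptide exchange chain H2-DMb1 (-0.73) and the invariant chain Cd74 (-0.63) lay close to it. Ciita, the master regulator of the group, was at 120 and 159 CPM (-0.41). The member on the other side was the costimulatory receptor Cd40, with 64 and 40 counts (0.72, 0.13 to 1.33), and the costimulatory ligand Cd86 was at -0.16. Cd74 was lower in the library labelled AEG-1DMAC in endothelial cells (-0.27), stellate cells (-0.33) and hepatocytes (-0.14) also, by smaller amounts. Per cell the libraries overlapped widely, with Cd74 at a median of 24.2 per 10,000 (highest 259) in the library labelled AEG-1DMAC and 39.6 (highest 354) in the library labelled AEG-1fl/fl.

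Lysosomal genes were all lower, by less than 2-fold. Each of the 22 members had a ratio below 0, 19 of them with an interval below 0. The median was -0.37, beside -0.36 for the 5 macrophage genes of the rule. The protease Ctsd, whose promoter is printed above, was at 265 and 480 CPM (-0.85), Psap, which encodes the saposin precursor, at 772 and 1228 CPM (-0.67), and the protease Ctsb, with the most counts, at 1880 and 2727 CPM (-0.54). Lamp1, with 4 copies of CACGTG in its promoter, was at 401 and 446 CPM (-0.15), and Tfeb was at -0.26. Psap was at -0.58 in endothelial cells, -0.44 in stellate cells and -0.28 in hepatocytes, and Ctsb at -0.35, -0.12 and -0.03, so some of these differences were seen in other cell types too.

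The lipid-associated macrophage list, which does not hold the 3 genes of the rule, had the most members past 2-fold of the macrophage lists. Of 16 tested members 6 were at least 2-fold lower in the library labelled AEG-1DMAC, 0 were higher, and the median was -0.47. The sum of Gpnmb, Mmp12 and Itgax was itself lower within the rule in the library labelled AEG-1DMAC, at 112 against 212 CPM, with 82 of 140 cells and 64 of 191 cells at no count. Trem2, a lipid receptor of macrophages, had 62 counts in 28 cells and 201 counts in 93 cells (29.2 and 91.9 CPM, -1.66, -2.09 to -1.24). The tetraspanin Cd63, of late endosomes, had 105 and 246 counts (49.4 and 112 CPM, -1.19, -1.53 to -0.85). The protease gene Adam8 had 15 counts in 7 cells and 58 counts in 32 cells (-1.91, -2.84 to -1.07), with 47% of the 15 in 1 cell. Mmp13 had only 11 and 37 counts (-1.71). Galectin Lgals3 (0.20) and Capg (0.17), which caps actin filaments, lay near 0. Trem2, Lpl and Mmp13 stood above the other kept cells in both libraries. Cd63 did so in the library labelled AEG-1DMAC (49.4 against 36.1 CPM) but not in the library labelled AEG-1fl/fl (112 against 124 CPM), where it was counted in 27.7% of thinned resident Kupffer-like cells and 31.4% of endothelial cells. Adam8, at 7.06 against 3.70 CPM and 26.5 against 28.3 CPM, did likewise. Trem2 was at -1.59 and Cd63 at -1.67 in endothelial cells, and at -2.36 and -1.67 in hepatocytes. Adam8 was at -1.20 in endothelial cells, -2.07 in stellate cells (3 and 21 counts) and -1.39 in hepatocytes. Spp1, the osteopontin gene, was at 25.4 and 146 CPM (-2.53), but it was counted in more thinned endothelial cells (10.7% and 25.2%) than resident Kupffer-like cells (4.29% and 23.0%) and 43% of its counts in the library labelled AEG-1fl/fl were in 1 cell. It stood below all other kept cells in both libraries (143 and 436 CPM). Spp1 is 1 of the 6 members past 2-fold, and the source of its counts was not tested.

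Lipid handling genes had 18 of 20 members lower and 1 past 2-fold, with a median of -0.25. That member was Lpl, lipoprotein lipase, which is on the lipid-associated list too, with 688 counts in 104 cells and 1511 counts in 160 cells (324 and 691 CPM, -1.09, -1.23 to -0.96). Lpl was at -0.44 in endothelial cells, -0.39 in stellate cells and 0.46 in hepatocytes. Plin2, the coat protein of lipid droplets, lay on the other side at 732 and 538 CPM (0.44), and Apoe (-0.10) and Scd1 (0.06) were near 0.

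Vcam1, an adhesion molecule carried by Kupffer cells and endothelial cells, was both well counted and far apart between the libraries. It had 614 counts in 98 of 140 cells of the library labelled AEG-1DMAC and 1777 counts in 159 of 191 cells of the library labelled AEG-1fl/fl (289 and 812 CPM, -1.49, -1.63 to -1.36). Its median per cell was 1.88 per 10,000 (highest 34.7) against 6.93 (highest 109), and the ranges overlapped. The ratio was -0.51 in endothelial cells, -1.28 in stellate cells and -0.68 in hepatocytes. The inflammation list had a median of -0.04, with 12 of 18 lower, 1 at least 2-fold higher and 2 at least 2-fold lower, Vcam1 itself and Adam8, which is on the lipid-associated list too. The member that was higher was Tnf, with 59 and 16 counts (1.92), of which 79.7% in the library labelled AEG-1DMAC lay in 1 cell. Il1b was at 0.22 and Tlr4 at -0.54.

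**Figure D3:**
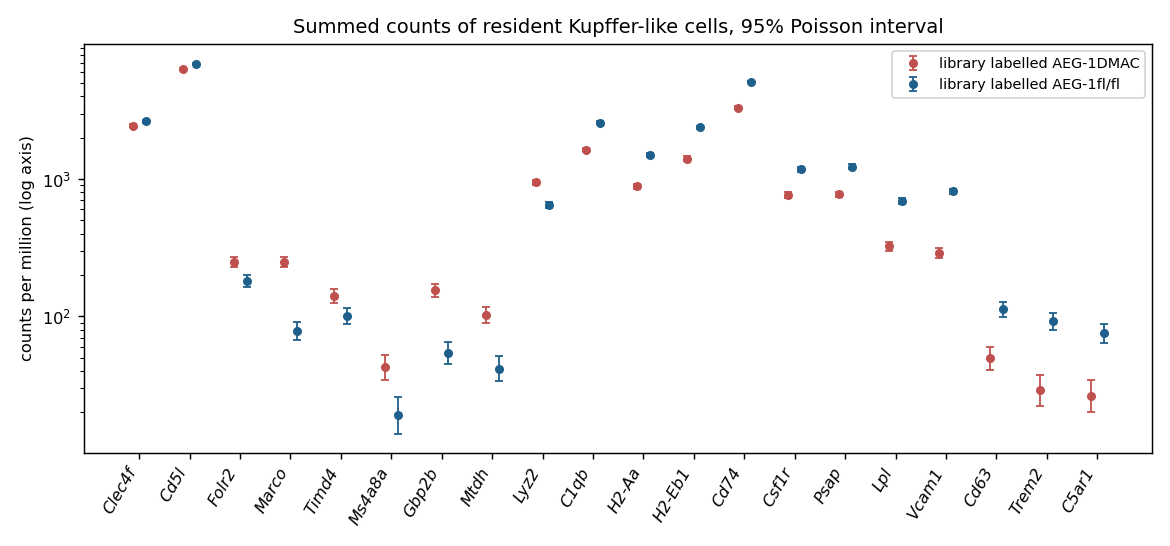
CPM of 20 genes in resident Kupffer-like cells of the library labelled AEG-1DMAC and of the library labelled AEG-1fl/fl, on a logarithmic axis, with bars for the 95% Poisson interval of the summed counts. Vcam1 (289 and 812 CPM) and Trem2 (29.2 and 91.9 CPM) are lower and Marco (247 and 78.6 CPM) and Mtdh (102 and 41.6 CPM) higher in the library labelled AEG-1DMAC, while Clec4f (2444 and 2636 CPM) and Cd5l (6327 and 6941 CPM) lie close together.

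Interferon-induced genes as a list were near the background, with 1 of 20 members at least 2-fold higher, 0 lower and a median of -0.06. Gbp2, Gbp5 and Gbp2b, which encode guanylate-binding proteins and whose response element is printed above, lay on the higher side. Gbp5 had 70 and 35 counts (1.04, 0.44 to 1.67) and Gbp2 159 and 91 counts (0.85), with 33% and 38% of the counts of the library labelled AEG-1DMAC in 1 cell. The ratio of Gbp5 turned to -0.26 with under 2 per 10,000 of Gpnmb, Mmp12 and Itgax and to -0.12 with no upper limit on them. Gbp2b, which was not on the list, had 329 counts in 86 of 140 cells and 119 counts in 49 of 191 cells (155 and 54.4 CPM, 1.51, 1.20 to 1.82). Thinned, Gbp2b was counted in 40.0% and 14.1% of resident Kupffer-like cells, and in 2 of 261 and 0 of 306 endothelial cells, where a count of 0 allows a share of up to 0.98% of cells with a count at 3000 counts, which is no limit on cells that express the gene. Its few counts in endothelial cells (48 and 13) had a ratio of 1.59. Gbp2b and Gbp2 are close relatives, and whether their probes tell them apart was not tested. Irf7 (-0.13), Isg15 (-0.11) and Oas2 (-0.15) did not pass 2-fold.

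Among chemokines 3 of 16 tested genes were at least 2-fold higher and 2 at least 2-fold lower, with a median of -0.18, and most of these rested on few cells. Cxcl9, a ligand of the T cell receptor Cxcr3, had 125 counts in 30 cells and 25 counts in 18 cells (2.36, 1.74 to 3.05), and 48% of the 125 lay in 1 cell. Cxcl10 had 70 and 25 counts (1.53), 40% of the 70 in 1 cell, and Cxcl13 had 49 counts in 8 cells and 12 counts in 4 cells (2.07). Ccl2, the monocyte attractant, had 11 and 48 counts (-2.08), with 83% of the 48 in 1 cell. Ccr1 had 7 and 21 counts (-1.54).

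Growth factor and cytokine receptor genes had a median of -0.37 over 15 members, 0 of them past 2-fold. Csf1r, the receptor that macrophages need for survival, was at 764 and 1173 CPM (-0.62, -0.71 to -0.53), and Tgfbr2 (-0.64) and Ifngr1 (-0.55) lay beside it. Csf1r was at -0.29 in endothelial cells and 0.21 in hepatocytes. Vegfa was on the other side at 54.6 and 34.7 CPM (0.65). Cell cycle genes (median -0.20 over 16) and immediate early genes (-0.11 over 10) had 0 members past 2-fold.

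The largest ratios were taken among genes that stood above the other kept cells in both libraries, with at least 100 summed counts. They mixed genes of these macrophages with markers of blood cells and with genes that were higher in endothelial cells. Ms4a8a, a membrane protein of macrophages, had 91 counts in 52 cells and 42 counts in 31 cells (1.16). The activating receptor Cd300e had 145 counts in 61 cells and 71 counts in 42 cells (1.07). Cd300e was at 1.62 in endothelial cells and 1.74 in hepatocytes. Ms4a8a had only 9 and 1 counts in endothelial cells (2.88) and 9 and 4 counts in hepatocytes (1.30). Serpina3g (1.42), Cd55 (1.21), which shields cells from complement, S100a4 (1.08) and Tmtc1 (1.02) were also on the higher side. In the library labelled AEG-1DMAC 1 cell held 26.5% of the Serpina3g counts and 1 cell 39% of the S100a4 counts. Serpina3g was at 131 and 48.9 CPM here against 302 and 256 CPM in endothelial cells, the library labelled AEG-1DMAC first. Cd55 was at 67.7 and 29.2 CPM against 180 and 232 CPM in the same order. The haemoglobin genes Hbb-bs (846 and 154 counts, 2.50) and Hba-a2 (2.16) led the higher side, with 36% and 34% of their counts in the library labelled AEG-1DMAC in 1 cell. Hbb-bs was at 0.30 in endothelial cells, 1.28 in stellate cells and 1.28 in hepatocytes.

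On the lower side the neutrophil and monocyte genes S100a8 (40 and 346 counts, -3.07), S100a9 (-3.04) and Chil3 (31 and 188 counts, -2.56) were led by 1 cell of the library labelled AEG-1fl/fl each, with 73%, 77% and 82% of the counts. Ace, angiotensin-converting enzyme, had 44 and 146 counts (-1.69), 28% of the 146 in 1 cell, and Slfn4, a myeloid gene, 20 and 80 counts (-1.96). The histone gene Hist1h2ap (-1.57), Ggta1 (52 counts in 32 cells and 134 counts in 77 cells, -1.32), which makes the alpha-gal sugar, and Ankrd10 (30 and 77 counts, -1.32) were the others, beside Trem2, C5ar1, Vcam1 and Itgam given above.

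Levels within the class moved with the counts of Gpnmb, Mmp12 and Itgax, so macrophages with Kupffer cell genes were set in 4 bins of that sum. The first bin, with no count, held 82 cells of the library labelled AEG-1DMAC and 64 of the library labelled AEG-1fl/fl, and the second, above 0 and under 5 per 10,000, held 58 and 127. The third, from 5 to under 20, held 27 and 147, and the last, at 20 or more, held 31 and 179. The bins at 5 and over lie outside the rule. Cells of the first bin were shallower than those of the second, at median counts of 6205 against 12134 and of 5043.5 against 8084, and a shallow cell has more chance of no count.

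Clec4f fell from the first bin to the last in both libraries, from 3800 through 1774 and 2204 to 1823 CPM in the library labelled AEG-1DMAC and from 4939 through 2142 and 1472 to 1261 CPM in the library labelled AEG-1fl/fl. Cd163 was concentrated in the bin with no count, at 263 CPM against 30.2, 10.3 and 37.1 in the former library and 570 CPM against 42.2, 59.0 and 33.4 in the latter. In the bin with no count 1 cell held 24.9% of the Cd163 counts in the former library and 48.2% in the latter, and without that cell the level was 201 and 306 CPM. Trem2 rose across the bins, from 15.7 through 35.8 and 87.5 to 209 CPM and from 85.5 through 93.2 and 193 to 405 CPM. These orders are descriptions, since the bins were made from counts of the same cells. Vcam1 had no such order, at 461, 204, 798 and 715 CPM in the library labelled AEG-1DMAC and 1033, 765, 999 and 951 CPM in the library labelled AEG-1fl/fl.

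Several differences between the libraries were present within the bin with no count of the 3 genes, where that sum was 0 in both libraries by construction. Cells of this bin were shallower in the library labelled AEG-1fl/fl (median 5043.5 against 6205 counts), so no count does not show an equal level of the 3 genes. The log2 ratio there was -1.16 (-1.38 to -0.95) for Vcam1, -0.78 for H2-Aa, -0.64 for both Cd74 and C1qb, -0.47 for Ctsb and -0.90 for Lpl. Trem2 was at -2.45 with 11 and 33 counts, and Mtdh at 1.44. Marco was at 0.81 (0.50 to 1.13), and at 1.62 without the 1 cell that held 43.8% of its counts in that bin of the library labelled AEG-1fl/fl. With the highest cell of each library left out Marco was at 1.30 (0.90 to 1.72). Timd4 was at -0.22 (-0.56 to 0.12), against 0.48 in all resident Kupffer-like cells. Cd163 was at -1.11, against -0.33 in all resident Kupffer-like cells. Without the 1 cell of the library labelled AEG-1fl/fl with the most counts of it the ratio was at -0.21 (-0.56 to 0.14). Without the highest cell of each library the Cd163 ratio was at -0.60 (-0.97 to -0.23). These checks were added after the data were seen. In the bins from 5 to under 20 and at 20 or more Vcam1 was at -0.32 and -0.41.

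**Figure D4:**
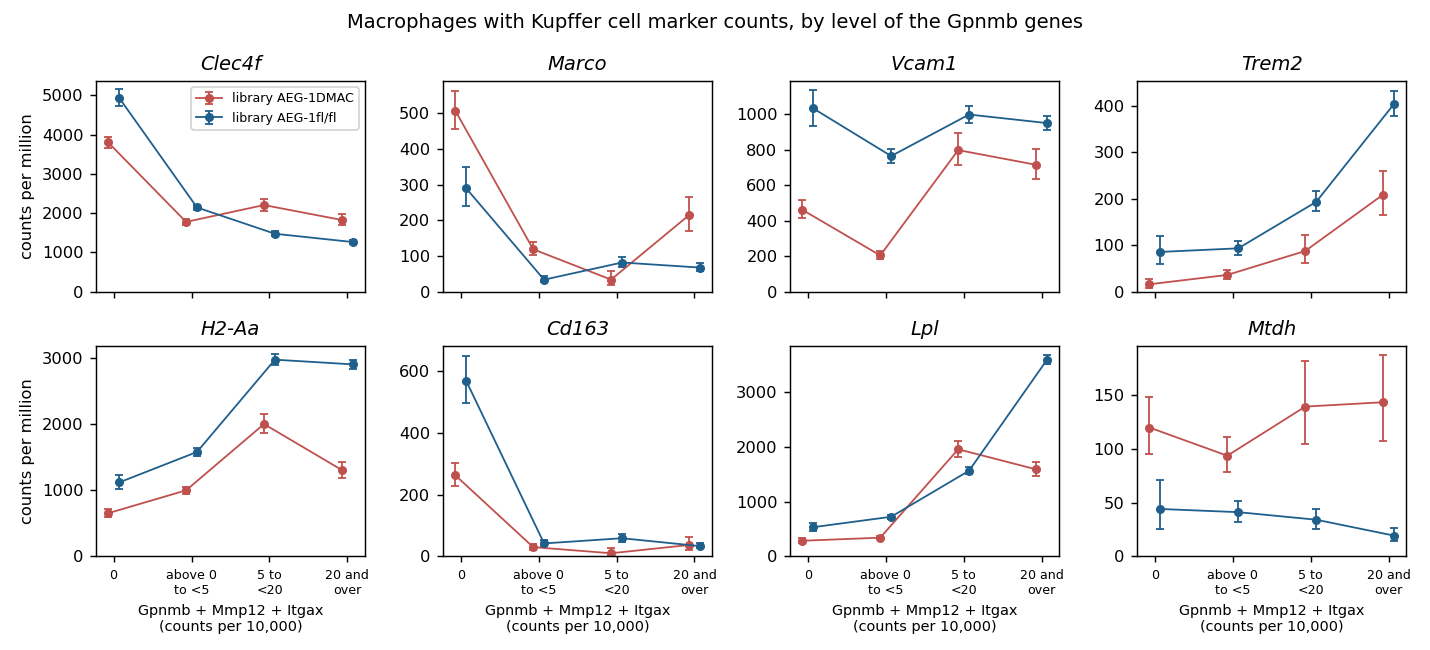
CPM of 8 genes in macrophages that hold Kupffer cell genes, by their level of Gpnmb, Mmp12 and Itgax (counts per 10,000), with bars for the 95% Poisson interval; the 2 left positions are the resident Kupffer-like cells. Trem2 rises across the bins in both libraries (15.7 to 209 and 85.5 to 405 CPM), Cd163 is highest with no count (263 and 570 CPM, or 201 and 306 CPM without its highest cell in each library), and Vcam1 is lower in the library labelled AEG-1DMAC in each of the 4 bins.

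Gated macrophages at 5 or more per 10,000 of Gpnmb, Mmp12 and Itgax, here called Gpnmb-high macrophages, numbered 72 and 423, of which 58 and 326 also held Kupffer cell genes. The rule drew the line between them and the resident Kupffer-like cells, so all values of this contrast are descriptions. In the library labelled AEG-1DMAC 10194 genes were compared, of which 704 (6.91%) were at least 2-fold higher in resident Kupffer-like cells and 712 (6.98%) at least 2-fold lower. In the library labelled AEG-1fl/fl 11313 genes were compared, with 674 (5.96%) higher and 802 (7.09%) lower. Of 18 lipid-associated macrophage genes 13 and 15 were at least 2-fold lower, with medians of -1.85 and -1.89, of 22 lysosomal genes 11 and 12 (-1.03 and -1.04), and of 11 MHC class II genes 7 and 7 (-1.17 and -1.16). Kupffer identity genes had medians of -0.07 and 0.92.

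Cd163 and Timd4 led the higher side when genes that stood above the other kept cells, with at least 100 summed counts, were ranked by the smaller of their ratios in the 2 libraries. Cd163 was at 107 against 21.2 CPM in the library labelled AEG-1DMAC (log2 ratio 2.34, 1.64 to 3.12) and at 135 against 36.4 CPM in the library labelled AEG-1fl/fl (1.90, 1.62 to 2.18), with the single-cell shares of its counts given above. Timd4 was at 141 against 25.9 CPM (2.44) and at 101 against 35.5 CPM (1.51). Sectm1a (1.31 and 1.62), Icos (1.34 and 1.08) and Chp2 (1.08 and 1.08) followed with fewer counts, and C6, a terminal complement component, was at 0.81 and 1.31. At the other end, beside Mmp12 (-5.28 and -4.72) and Gpnmb (-4.43 and -4.70) of the rule, lay Plau, the urokinase gene (-3.67 and -3.12), the stress factor Atf3 (-3.34 and -2.47), Cd63 (-2.98 and -2.31), Capg (-2.20 and -2.25) and Lgals3 (-2.16 and -2.56).

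Some genes separated the 2 macrophage classes in one library more than in the other. Vcam1 was at 289 against 689 CPM in the library labelled AEG-1DMAC (-1.25, -1.42 to -1.09) and at 812 against 828 CPM in the library labelled AEG-1fl/fl (-0.03, -0.11 to 0.05), so the 2 intervals did not meet. Clec4f was at 0.42 (0.34 to 0.51) and 1.25 (1.20 to 1.31). Differences of this kind compare 4 sums of cells from 2 libraries and were not tested. The median of the hepatocyte list was 0.88 and 1.05 in this contrast, and that of the endothelial list 1.18 and -0.21, so resident Kupffer-like cells held more hepatocyte transcripts than Gpnmb-high macrophages in both libraries. Between the libraries, several differences given above for resident Kupffer-like cells had the same direction in Gpnmb-high macrophages. The log2 ratios there were -1.17 for Trem2, -0.72 for Lpl, -0.48 for Cd74, -0.46 for C1qb, -0.48 for Psap and -0.45 for Ctsb. Mtdh (2.51), Marco (0.91), Gbp2b (1.08), Ms4a8a (1.37) and Cd300e (0.94) were higher in the library labelled AEG-1DMAC. Cxcl9, Gbp5, S100a4, Ace and Col3a1 ran the other way, as given in the results flagged below.

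**Figure D5:**
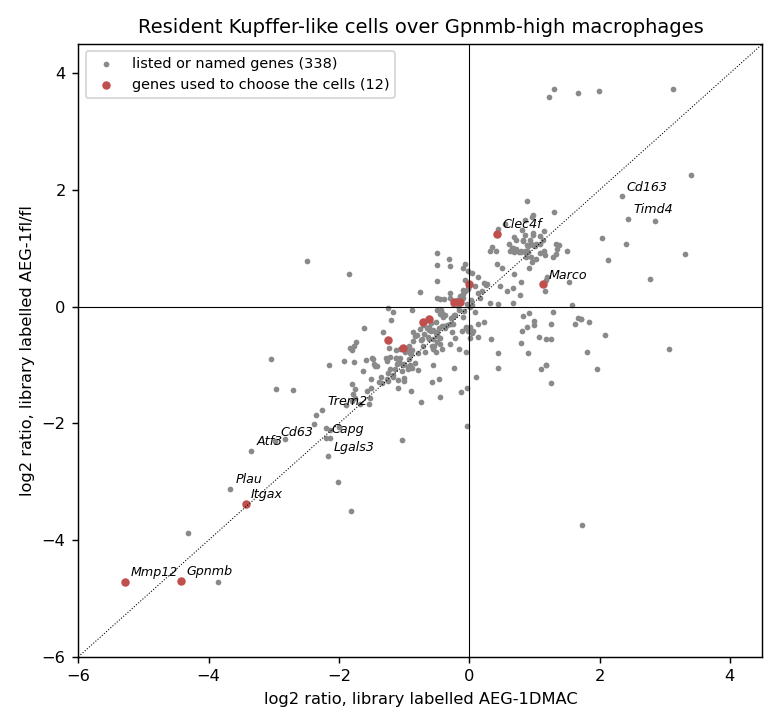
Each point is 1 of 338 listed or named genes, or 1 of 12 genes of the rule where marked, placed by the log2 ratio of CPM in resident Kupffer-like cells over Gpnmb-high macrophages, with the library labelled AEG-1DMAC on the horizontal axis and the library labelled AEG-1fl/fl on the vertical axis. Cd163 (2.34 and 1.90) and Timd4 (2.44 and 1.51) lie at the upper right and Mmp12 (-5.28 and -4.72) at the lower left, while Vcam1 (-1.25 and -0.03) lies off the diagonal.

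As a share of gated macrophages resident Kupffer-like cells were 57.1% (50.7 to 63.4) in the library labelled AEG-1DMAC and 28.7% (25.3 to 32.3) in the library labelled AEG-1fl/fl. As a share of all kept cells they were 6.58% (5.56 to 7.71) and 6.95% (6.03 to 7.96), which overlap. Gated macrophages were 11.5% (10.2 to 12.9) and 24.2% (22.6 to 25.9) of kept cells, and Gpnmb-high macrophages 29.4% (23.8 to 35.5) and 63.5% (59.7 to 67.2) of gated macrophages. Shares among macrophages and among all cells therefore gave different pictures of the same 140 and 191 cells. The sum of Gpnmb, Mmp12 and Itgax that sets the class differs between the libraries, so the share among macrophages is fixed in part by the rule and is a description.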

How the data were processed

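The files hold the authors' raw counts of probe molecules per gene and cell barcode, deposited as called barcodes without further filtering; per the file headers and labels they were made with Cell Ranger 7.1.0 on mm10, and the labels also name Seurat. The members and gene lists were chosen with earlier results of these data known.

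Cells were selected as the report states and their counts summed per library. CPM are per 1000000 counts of all genes. Ratios are unsmoothed ratios of CPM with Clopper-Pearson 95% intervals given the sum of both counts, CPM carry Poisson intervals and shares Clopper-Pearson intervals. Genes under 20 summed counts were left out, and past 2-fold means a log2 ratio of at least 1 or at most -1. For shares of cells with a count, each cell was thinned to 3000 counts. No doublet caller was run: doublets were kept, except those the endothelial and stellate limits removed, and cells over 3 times the median count were left out in an alternative. Endothelial and stellate cells were gated with the rule's own genes, and hepatocytes as cells with at least 20% of counts from the hepatocyte list and under 1 per 10,000 of the macrophage, endothelial and stellate genes. The 12 symbols that occur more than once were kept apart by gene identifier.

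Named genes were those of the rule and the 6 markers; Mtdh, Lyz2, Adam8, Cd63, Psap, Vcam1 and Tnf; in each list the members past 2-fold with an interval off 0 and at least 100 summed counts, and the member with the most counts; the 12 highest and 12 lowest ratios among genes with at least 100 summed counts, at least 10 per library and CPM above all other kept cells in both libraries; and the 10 highest and 10 lowest against Gpnmb-high macrophages. Some genes that this rule names are not reported here. Other members of the lists are named as examples, and Gbp2b and the promoters were followed after their values were seen. Python 3.11.15, NumPy 2.4.6, SciPy 1.17.1, pandas 2.3.3 and matplotlib 3.10.9 were used, and the ratio script was tested on simulated data. With 1 library per label no model was fitted.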

Additional observations from a re-analysis of the deposited data

Results flagged for a closer look

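For 5 named genes the difference between the libraries ran in opposite directions in resident Kupffer-like cells and in Gpnmb-high macrophages, given here as log2 ratios of the library labelled AEG-1DMAC over the library labelled AEG-1fl/fl. The difference between the 2 classes was not tested in any of them. Cxcl9 was at 2.36 in resident Kupffer-like cells (125 and 25 counts) and -3.12 in Gpnmb-high macrophages (15 and 709 counts). Of the 709 counts, 590 lay in the bin from 5 to under 20 given above, with 94.7% of the 590 in 1 cell. Without that cell the log2 ratio in this bin was -0.61 (-2.33 to 0.77). In the bin at 20 or more, without the highest cell of the library labelled AEG-1fl/fl, the ratio was -0.10 (-1.30 to 0.93). With the highest cell of each library left out, Cxcl9 was at -0.90 (-2.86 to 0.60) in the bin from 5 to under 20. In the bin at 20 or more it was then at -0.86 (-2.54 to 0.45). Gbp5 was at 1.04 (70 and 35 counts) and -1.13 (13 and 155 counts), and S100a4 at 1.08 (127 and 62 counts) and -0.93 (52 and 539 counts). Ace was at -1.69 (44 and 146 counts) and 0.72 (63 and 209 counts). Col3a1, a stellate cell gene, was at 0.74 (526 and 324 counts) and -1.44 (93 and 1374 counts), with 41% of the 526 counts in 1 cell. In resident Kupffer-like cells with no count of Gpnmb, Mmp12 or Itgax Col3a1 was at -1.20.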

How the results depend on the processing

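No paired analysis was possible because there was 1 library per label. Of the 44 named genes past 2-fold, 42 stayed there with at least 5000 counts per cell, 42 with at least 10 per 10,000 of the Kupffer cell genes, 30 with under 2 per 10,000 of Gpnmb, Mmp12 and Itgax, 35 without cells over 3 times the median, 44 with CPM taken without the hepatocyte list, 42 after the hepatocyte profile was subtracted and 35 with equal weight per cell. Vcam1 lay between -1.62 and -1.14, Trem2 between -2.45 and -1.51, Mtdh between 1.30 and 2.22 and Marco between 0.81 and 2.11 over all alternatives, including those added after the data were seen.

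The counts of genes at least 2-fold higher and lower (246 and 230) became 66 and 49 with at least 100 summed counts, by construction, and 843 and 540 after the hepatocyte profile was subtracted. The lower count became 353 without the deepest cells and 431 with equal weight per cell, of which 127 and 190 were among the 230. With the limit on Gpnmb, Mmp12 and Itgax at 2, the shares of gated macrophages were 48.2% and 15.3%, and the medians of the transcription factor and iron lists -0.29 and -0.39. Under the main rule, without that change of the limit, the shares of all kept cells were 6.58% and 6.95%. Without the deepest cells the lipid-associated list was at -0.93.

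The other alternatives were chosen after seeing the data. With no count of Gpnmb, Mmp12 or Itgax the counts were 498 and 431, the Kupffer identity median was -0.26 and the median of all genes -0.13, and 22 of 38 named genes stayed past 2-fold. With no upper limit the lower count was 415 and medians were 0.18 for Kupffer identity, -0.57 for complement, -0.49 for lipid handling, -1.16 for the lipid-associated list, -0.71 for lysosome and -0.94 for MHC class II. With the Kupffer cell sum above the 95th percentile of endothelial cells the shares were 44.5% and 19.97% and the Kupffer identity median -0.24.

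Signs changed for Chil3 (0.96 with the limit of 2, 2.25 with no count), Gbp5 (-0.26 with the limit of 2, -0.12 with no upper limit), Rgs5 (-0.043) and Tnf (-0.60) without the deepest cells, Tnf (-0.41) above the 95th percentile, Spp1 (0.18) after subtraction, Reln (-0.12) with equal weights and Cxcl9 (-1.31) with no upper limit. The causes were not tested. The lowest depth kept, 3000 counts per cell, limits single-cell detection, and with 1 library per label no spread between mice is known.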
